A study of Mus musculus with 8 samples.

Results

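Bile acids are made from cholesterol in hepatocytes, secreted into bile, taken back up in the intestine and returned to the liver through the portal vein. A set of 10 genes that carry the hepatic, intestinal and renal steps of this circulation was read out across 4 tissues. The members were chosen by gene symbol, with earlier results of these data known, and are 10 of the 52195 genes in the deposited table. They are Slc10a1, Abcb11, Baat and Slc27a5 on the hepatic side, Slc10a2, Slc51a, Slc51b, Fabp6 and Fgf15 on the side of reabsorption and its hormone signal, and the bile acid receptor Nr1h4. Polyadenylated RNA was sequenced from liver, small intestine, kidney and lung, as a pair of libraries for every tissue, 8 libraries together. The animals were male C57BL/6J mice, an inbred wild-type strain, aged 6 to 10 weeks, and none was treated. By the study's methods the replicates came from separate mice and all 4 tissues were cut from each mouse, so libraries of different tissues share animals, but the labels do not say which. Whole tissue was used, and the labels do not give the segment of small intestine.

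Conjugated bile acids cannot cross membranes freely, so each step needs a carrier. The hepatocyte takes them from portal blood with the sodium-dependent transporter Slc10a1 (NTCP) and pumps them into bile with the ATP-driven pump Abcb11 (BSEP). In the terminal ileum, the sodium-dependent transporter Slc10a2 (ASBT) takes them into the enterocyte, Fabp6 binds them in the cytosol, and the heteromer of Slc51a and Slc51b (OSTα and OSTβ) releases them into blood. The same uptake and export proteins recover filtered bile acids in the kidney proximal tubule. The nuclear receptor Nr1h4 (FXR) senses bile acids, and in the ileum it turns on the hormone gene Fgf15, which signals to the liver to lower bile acid synthesis.

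The values are fragments per kilobase of transcript scaled by library size (FPKM), which are given per length. Comparisons between genes rest on this scaling, and other effects of transcript length were not tested. Whole reads could be worked out from the steps between low values, and each library held between 9399956 and 22133910 reads on genes. For a gene with 1 kb of exons, 3 reads were worth between 0.140 and 0.327 FPKM, which is the limit used here for a gene listed at 0. A 0 in this table need not mean a level under that limit, since Hsd3b7, an early enzyme of bile acid synthesis singled out after its values were seen, was listed at 0 in all 8 libraries, liver included. The limits and counting intervals given here cover counting error only. The tissue labels held against marker genes. The summed FPKM of 7 hepatocyte markers was 55199 and 50087 in the liver libraries, and proximal tubule, lung epithelium (led by Scgb1a1, Sftpc and Sftpb) and enterocyte markers were each called higher in their own tissue in all members of their lists. The small intestine libraries also held transcripts of pancreatic acinar cells, with a summed FPKM over 8 digestive enzyme genes of 2365 in replicate 1 and 1093 in replicate 2, against 0.748 to 5.61 in the other 6 libraries.

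The sequence before the transcription start is shown for 4 members, because Slc51a and Slc51b encode partner subunits and varied together across libraries, Slc10a2 had an unlike tissue pattern, and Abcb11 is a known target of the receptor Nr1h4. RefSeq promoter windows matched 7 of the 10 members, with 8 windows between them. RefSeq and GENCODE M21 place the start at the same base in Slc51a and Abcb11, but the RefSeq start lies 182 bases inside the GENCODE gene in Slc51b and 64 bases inside it in Slc10a2. Each line therefore gives those of the 250 bases before the RefSeq start that also lie before the GENCODE gene, 5′ to 3′ in the direction of the gene, in build GRCm38.p6. The coordinates are chr16:32487880-32488129 (minus strand) for Slc51a, chr9:65422956-65423023 (minus strand) for Slc51b, chr8:5105352-5105537 (minus strand) for Slc10a2 and chr2:69342617-69342866 (minus strand) for Abcb11. Capitals mark the nuclear receptor hexamer AGGTCA or, in Slc10a2, the hexamer GTTAAT of the factor HNF1, read on either strand.
Slc51a: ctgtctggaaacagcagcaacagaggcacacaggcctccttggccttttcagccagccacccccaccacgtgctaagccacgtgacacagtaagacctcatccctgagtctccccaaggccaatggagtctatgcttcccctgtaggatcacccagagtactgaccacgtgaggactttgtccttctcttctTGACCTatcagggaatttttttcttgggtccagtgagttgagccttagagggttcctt
Slc51b: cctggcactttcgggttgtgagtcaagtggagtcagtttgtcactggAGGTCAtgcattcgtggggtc
Slc10a2: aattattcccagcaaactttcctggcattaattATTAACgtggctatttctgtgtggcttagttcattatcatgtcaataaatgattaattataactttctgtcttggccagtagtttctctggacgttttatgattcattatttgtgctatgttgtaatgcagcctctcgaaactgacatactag
Abcb11: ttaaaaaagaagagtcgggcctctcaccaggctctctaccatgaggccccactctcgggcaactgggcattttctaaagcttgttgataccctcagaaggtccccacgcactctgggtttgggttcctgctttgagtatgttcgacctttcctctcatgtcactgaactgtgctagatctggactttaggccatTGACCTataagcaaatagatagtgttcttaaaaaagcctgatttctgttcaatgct
The hexamer AGGTCA lay 58 bases before the start of Slc51a and 56 bases before that of Abcb11, on the opposite strand in both. In Slc51b it lay on the gene's own strand, 203 bases before the RefSeq start and 21 bases before the GENCODE start. In windows of 300 bases, which also hold 50 bases after the start, 5 of the 8 members' windows had this hexamer, and 16.3% of all 32851 RefSeq windows had it. The windows with it in Slc10a1 and Nr1h4 lie within the GENCODE gene. Before the GENCODE start it was found in Slc51a, Slc51b and Abcb11 only. The HNF1 hexamer GTTAAT was in 2 of the 8 members' windows, those of Slc10a2 and Nr1h4, and in 7.10% of all windows. Before the GENCODE start it was found in Slc10a2 only. The inverted repeat AGGTCANTGACCT, which the receptor is known to bind, was in 0 of the 8 windows and in 3 of all windows. The full palindrome GTTAATNATTAAC was likewise in 0 of the 8 and in 3 of all. Each hexamer is part of its longer element, AGGTCA of the repeat and GTTAAT of the palindrome, so the searches overlap. These matches describe letters in a window and were not tested for binding.

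On the scale log2(FPKM + 1), the level in a tissue was set against the mean level of the 3 remaining tissues, with limma's moderated test and Benjamini-Hochberg adjustment over 16328 genes. A gene was called at an adjusted p under 0.05 with an absolute log2 difference over 1. Of the 10 members, 8 passed the filter on low values, which asked for 2 libraries at an FPKM of 1 or above. Fabp6 and Fgf15 did not pass it. Slc10a1, Abcb11 and Slc27a5 passed it through the 2 liver libraries alone, being under 1 FPKM in the other 6, so their calls follow in part from the filter. The members and lists were also chosen with earlier results of these data known. Counts of members or list genes beside shares of all genes are therefore descriptions and not independent support. In liver, 6 of the 8 tested members were called higher and 2 lower, where 6.56% of all genes tested were called higher and 32.7% lower. In small intestine, 2 were higher and 5 lower, with 13.7% and 11.3% of all genes. In kidney, 4 were higher and 4 lower, with 8.65% and 16.1% of all genes. In lung, 0 were higher and 8 lower, with 40.7% and 8.26% of all genes. The median log2 difference of the 8 was 3.87 in liver, -1.59 in small intestine, -0.44 in kidney and -2.46 in lung, beside medians over all genes tested of -0.72, -0.01, -0.34 and 0.82. The last 4 values are the shift of the whole table, and median-of-ratios scaling brought them to -0.10, -0.05, -0.10 and -0.09. Under that scaling 13.3% of all genes were called higher and 14.6% lower in liver, 13.7% and 12.2% in small intestine, 12.3% and 12.7% in kidney, and 15.1% and 16.9% in lung, while the counts of members called stayed as above in all 4 tissues. Since the 3 other tissues include liver, a hepatic gene that is near 0 everywhere else is also called lower in each of those 3. The summed FPKM of the 10 members was 759 and 798 in the liver libraries, 132 and 213 in small intestine, 90.4 and 82.8 in kidney, and 2.86 and 2.25 in lung.

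**Figure D1:**
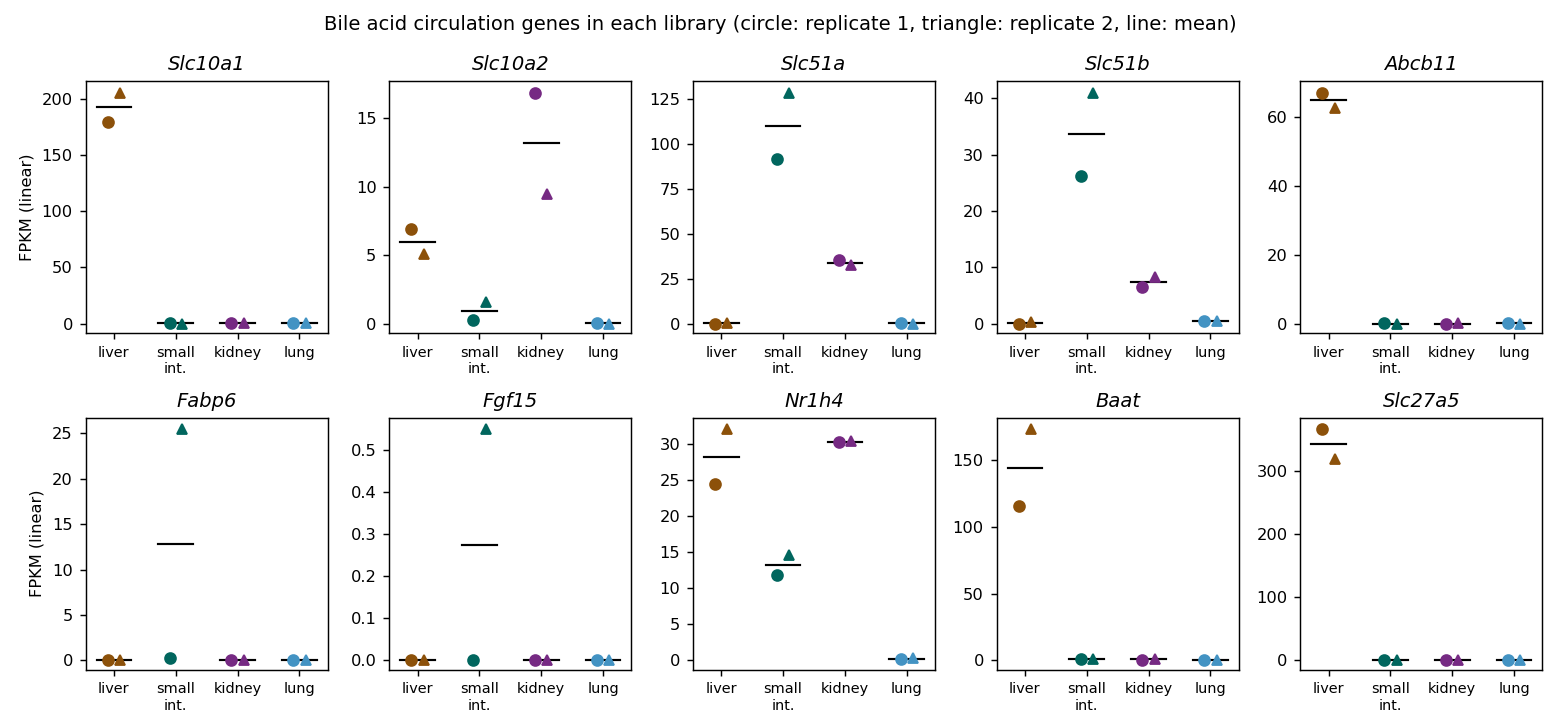
FPKM (linear axis, from 0, its own scale for each gene) of the 10 members in the 8 libraries, with circles for replicate 1, triangles for replicate 2 and a line at the mean of each tissue. Slc10a1, Abcb11, Baat and Slc27a5 stand up in liver alone, Slc51a and Slc51b in small intestine and then kidney, and Fabp6 and Fgf15 in small intestine replicate 2.

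Slc10a1, Abcb11, Baat and Slc27a5 were hepatic, with a mean FPKM in liver over that of the next tissue of 153.6-fold for the smallest of them, Baat. Slc27a5, the acyl-CoA synthetase (BACS) that activates bile acids for conjugation and lies at chr7:12988346-12998192 on the minus strand, was the highest member. Its FPKM was 366 and 319 in liver and between 0.230 and 0.588 in the other 6 libraries. Baat (chr4:49489422-49506557, minus strand) encodes the transferase that then joins the bile acid to taurine or glycine. Its FPKM was 116 and 173 in liver, 0.881 and 1.001 in small intestine, 0.625 and 1.01 in kidney, and 0.264 and 0.415 in lung. Slc10a1 (chr12:80953183-80968705, minus strand) was at 179 and 205 in liver, 0.291 and 0.241 in small intestine, 0.318 and 0.657 in kidney, and 0.559 and 0.476 in lung. Abcb11 (chr2:69238282-69342616, minus strand) was the lowest of these 4 genes in liver, at 67.0 and 62.5 FPKM, which rested on 3158 and 3321 reads. In the other 6 libraries it lay between 0.00906 and 0.139 FPKM. For all 4 genes the liver libraries lay far above every other library, with no overlap.

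On the log2(FPKM + 1) scale, liver exceeded the mean of the other tissues by 7.98 (SE 0.14) for Slc27a5, 7.09 (SE 0.15) for Slc10a1, 6.41 (SE 0.19) for Baat and 5.92 (SE 0.13) for Abcb11, with adjusted p by limma of at most 1.96e-07. An exact two-sided permutation test of each gene gave 0.0357, the smallest p that 2 libraries against 6 allow. Among the other 3 tissues, no pair differed in a call for any of these genes, with the largest log2 difference 0.54 (SE 0.23, adjusted p by limma 0.0777) for Baat between small intestine and lung, which was called only with a pseudocount of 0.1 (1.26, adjusted p 0.0162). The traces outside liver were small shares of the liver mean. Over the 6 libraries the median share was 0.207% for Slc10a1, 0.125% for Abcb11, 0.521% for Baat and 0.105% for Slc27a5. The 7 hepatocyte markers were also present in these libraries, with medians of 0.0852% for Alb, 0.212% for Ttr, 0.118% for Apoa2, 0.165% for Serpina1a, 0.618% for Cyp2e1, 0.0914% for F2 and 0.0709% for Fgb. Their shares were not alike across tissues. Cyp2e1 reached 22.5% and Ttr 2.51% in kidney, and in small intestine Baat was at 0.609% and 0.693% where Alb was at 0.0338% and 0.0404%. Whether the traces of the members share a source with these was not tested. In bulk tissue, fewer cells of a type and less RNA per cell cannot be told apart, here and for every level that follows.

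Slc51a and Slc51b, the subunits of the basolateral exporter, were both highest in small intestine, lower in kidney and under 1 FPKM in liver and lung. Slc51a (chr16:32474504-32487879, minus strand) was at 91.4 and 129 FPKM in small intestine and 35.5 and 32.6 in kidney. It was at 0.136 and 0.545 in liver, from 4 and 18 reads, and at 0.576 and 0.0503 in lung, from 18 and 2 reads. Slc51b (chr9:65412714-65422955, minus strand) was at 26.2 and 41.0 in small intestine, 6.58 and 8.23 in kidney, and 0.433 and 0.567 in lung. Liver replicate 1 listed it at 0, which allows up to 0.462 FPKM, and liver replicate 2 had 2 reads, or 0.273 FPKM. The small intestine libraries lay above the kidney libraries for both subunits, and the kidney libraries above liver and lung.

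Small intestine exceeded kidney by 1.64 (SE 0.27, adjusted p by limma 0.00169) for Slc51a and by 2.02 (SE 0.25, adjusted p by limma 0.000425) for Slc51b, both on the log2(FPKM + 1) scale. With a pseudocount of 0.1 the call for Slc51a was lost (1.67, adjusted p 0.0917). Kidney exceeded lung by 4.77 (SE 0.27) for Slc51a and by 2.48 (SE 0.25) for Slc51b, both called. Liver minus lung was 0.04 (SE 0.27, adjusted p by limma 0.899) for Slc51a and -0.41 (SE 0.25, adjusted p by limma 0.171) for Slc51b, and neither was called. With a pseudocount of 0.1 lung was called above liver for Slc51b (1.63, adjusted p 0.0327). Against the mean of the other tissues, kidney was called higher for Slc51b at 1.12 (SE 0.21, adjusted p by limma 0.00272), and this call was lost without kidney replicate 2, where the value was 0.98 (adjusted p 0.0275). In the 4 libraries with clear expression, Slc51b was always the lower subunit in FPKM. Its exons span 709 bases and those of Slc51a 3198, and whether this affects the comparison was not tested. The ratio of Slc51b to Slc51a in FPKM was 0.287 and 0.319 in small intestine and 0.185 and 0.252 in kidney. The small intestine ratios were the higher pair, with an exact two-sided permutation p of 0.333, the smallest that 2 libraries against 2 allow. Across all 8 libraries the log2(FPKM + 1) values of the subunits correlated with Pearson's r of 0.980, which rests on the contrast between 4 high and 4 low libraries.

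**Figure D2:**
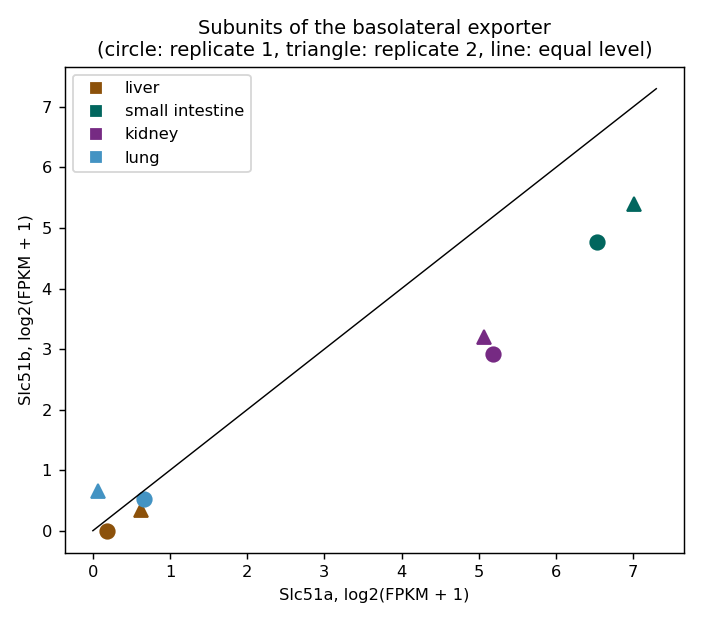
Slc51a (x axis) against Slc51b (y axis), each as log2(FPKM + 1), with 1 point per library coloured by tissue, circles for replicate 1, triangles for replicate 2 and a line of equal levels. The small intestine and kidney libraries lie below the line, with Slc51b to Slc51a ratios of 0.185 to 0.319, while liver and lung gather near 0.

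Nr1h4 (chr10:89454234-89533585, minus strand), the bile acid receptor, was found in the 3 tissues that handle bile acids. Kidney had 30.3 and 30.4 FPKM, liver 24.4 and 32.0, small intestine 11.9 and 14.6, and lung 0.222 and 0.280. Kidney and liver overlapped and differed by 0.11 (SE 0.18, adjusted p by limma 0.696) on the log2(FPKM + 1) scale. Liver exceeded small intestine by 1.03 (SE 0.18, adjusted p by limma 0.00204), just past the size needed for a call. It fell under that size without liver replicate 2 (0.84), without small intestine replicate 1 (0.89) and with libraries set to the same sum without mitochondrial genes (0.96). Small intestine exceeded lung by 3.50 (SE 0.18, adjusted p by limma 3.16e-06). Both lung libraries were below the other 6 libraries (log2 difference -4.23, SE 0.15, exact two-sided permutation p 0.0357, the smallest possible). All 8 tested members were called lower in lung. Against the other tissues small intestine was 0.44 higher (SE 0.15, adjusted p by limma 0.038), under the size needed for a call. Of the 8 tested members, 6 had a highest tissue called apart from the next, as did 34.4% of all genes tested. The exceptions were Nr1h4 and Slc10a2. The count was 5 with a pseudocount of 0.1, where Slc51a was lost, and 7 in both settings that call Slc10a2 higher in kidney than in liver, given with that gene.

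**Figure D3:**
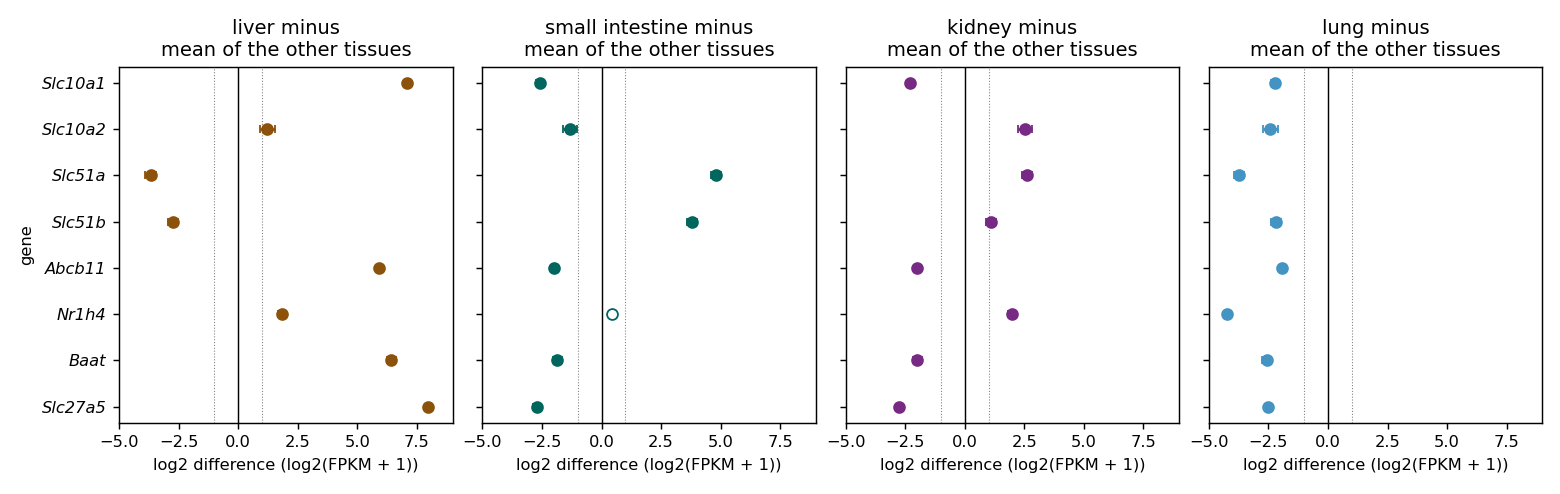
Log2 difference on the log2(FPKM + 1) scale of each tissue minus the mean of the other 3, for the 8 tested members, with bars of 1 SE from limma, dotted lines at -1 and 1, and filled points for called differences. The open point is Nr1h4 in small intestine at 0.44, and every point for lung lies below -1.

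Slc10a2 (chr8:5083219-5105351, minus strand), the uptake transporter known from the terminal ileum, was highest in kidney and not in small intestine. Its FPKM was 16.9 and 9.46 in kidney, from 1502 and 680 reads, and 6.89 and 5.09 in liver, from 262 and 218 reads. In small intestine it was 0.309 and 1.62, from 12 and 76 reads. In lung it was 0.0740 and 0.0194, from 3 reads and 1 read. Kidney had a mean of 13.2 ± 5.24 (SD, n = 2) and liver one of 5.99 ± 1.27. Both kidney libraries were above all others and both liver libraries above all of small intestine and lung, and the replicates of small intestine were 5.24-fold apart.

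Kidney exceeded the mean of the other tissues by 2.52 (SE 0.31, adjusted p by limma 0.000323, exact two-sided permutation p 0.0357). Kidney was above liver by 0.98 (SE 0.38, adjusted p by limma 0.0774), a difference that was not called. It was called without kidney replicate 2 (1.37, adjusted p 0.0396) and with the same sum without mitochondrial genes (1.52, adjusted p 0.0128). Liver was above small intestine by 1.90 (SE 0.38, adjusted p by limma 0.00356), and small intestine above lung by 0.82 (SE 0.38, adjusted p by limma 0.0901), which was not called. The latter was called with a pseudocount of 0.1 (2.54, adjusted p 0.0124), with voom (3.93, adjusted p 0.0197) and without small intestine replicate 1 (1.32, adjusted p 0.0274). Against the other tissues, liver was called higher at 1.22 (SE 0.31, adjusted p by limma 0.00776, exact two-sided permutation p 0.429). Without liver replicate 1 that value was 1.03 (adjusted p 0.0859), and with libraries set to the same sum without mitochondrial genes it was 0.985 (adjusted p 0.023), so that neither passed. Small intestine was called lower at -1.32 (SE 0.31, adjusted p by limma 0.00817, exact two-sided permutation p 0.393), but the call was lost without small intestine replicate 1 (-0.82, adjusted p 0.0983), with a pseudocount of 0.1 (-1.41, adjusted p 0.0624) and with voom on the recovered reads (-1.04, adjusted p 0.283). In liver, cholangiocytes are known to carry Slc10a2, and 6 cholangiocyte markers summed to 5.62 and 3.83 FPKM there, with none at 0, against 43.9 to 1095 in the other 6 libraries. The sums outside liver came mostly from Epcam, Krt19 and Krt7, which other epithelia also express. Of the 5 markers tested, 4 were called lower in liver and 0 higher, beside 32.7% and 6.56% of all genes tested. Sox9, the one not called there, was at 1.19 and 0.586 FPKM in liver, 3.54 and 2.22 in small intestine, and at most 0.347 in kidney and lung. In kidney, 5 proximal tubule markers summed to 1481 and 1019 FPKM, led by Slc34a1 (987 and 655), Slc22a6 (181 and 167) and Slc22a8 (131 and 94.6), and were higher in replicate 1, as were Slc10a2 and 74.9% of 15890 tested genes detected in kidney, while Slc51b was higher in replicate 2. The part of these cell types in the levels of Slc10a2 was not tested.

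Fabp6 and Fgf15, the ileal binding protein and the ileal hormone, were found almost only in small intestine replicate 2. Fabp6 (chr11:43596049-43601540, minus strand) was at 0.223 FPKM in small intestine replicate 1, a single read, and at 25.4 in replicate 2, from 138 reads. It was listed at 0 in the other 6 libraries, where 3 reads would be worth 0.292 to 0.683 FPKM, so that replicate 2 was at least 37.2-fold above that limit. The replicates differed 114-fold, with an exact 95% counting interval of 20.1 to 4538. Among 12815 genes that reached 1 FPKM in small intestine, 14 (0.109%) differed between the replicates by as much as Fabp6 on the log2(FPKM + 1) scale. Fgf15 (chr7:144896531-144900953, plus strand) was listed at 0 in replicate 1 and was at 0.549 FPKM in replicate 2, from 19 reads. It too was listed at 0 in liver, kidney and lung, and replicate 2 was at least 5.13-fold above the limit of 3 reads in these libraries. Without the filter on low values, the log2 difference of small intestine from the other tissues was 2.51 (SE 1.04, adjusted p by limma 0.130) for Fabp6 and 0.32 (adjusted p by limma 0.178) for Fgf15, and neither passed the test.

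The replicates of small intestine also differed in other genes whose level varies along the intestine. Of the 10 members, 8 were higher in replicate 2, beside 43.5% of 15882 tested genes detected in this tissue. Of these 8, Baat and Slc27a5 had only 6 to 22 reads per library. All 4 genes of the list for the distal intestine were higher in replicate 2, with a median ratio of 2.60. Among them, Cubn, the receptor for intrinsic factor and vitamin B12, was at 5.20 and 8.50 FPKM, and its partner Amn was at 49.1 and 60.3. Cubn and Amn were also called higher in kidney, and their ratios were 1.63 and 1.23, where 6 enterocyte genes ranged from 0.742 to 1.59. The hormone neurotensin, Nts, was at 5.31 and 18.9, and the hormone gene Pyy, which was not tested, rested on 3 and 21 reads. Of the 10 genes for the proximal intestine, 9 were lower in replicate 2, with a median ratio of 0.719. Gip, an incretin hormone of the upper intestine, was at 133 and 65.4 FPKM. Gata4, a transcription factor of duodenum and jejunum known to repress Slc10a2, was at 25.6 and 25.2 in small intestine, the lactase gene Lct was at 127 and 131, and Ada was at 205 and 200.4. The 8 pancreatic acinar genes were all lower in replicate 2, with a median ratio of 0.461, and were led by Ctrb1, Pnlip and Clps. Of 6 enterocyte genes 4 were higher, with a median ratio of 1.35, among them Fabp2 (4472 and 6134 FPKM) and Anpep (845 and 1128), while Alpi was at 640 and 474. The proximal genes were not all specific to this tissue, since 7 of 10 were called higher in small intestine, and Cybrd1, an iron reductase, was at 0.680 and 0.463 FPKM there against a mean of 1.65 in lung. The part of intestinal segment or of pancreatic tissue in the members' values was not tested, and these ratios set 1 library against 1.

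**Figure D4:**
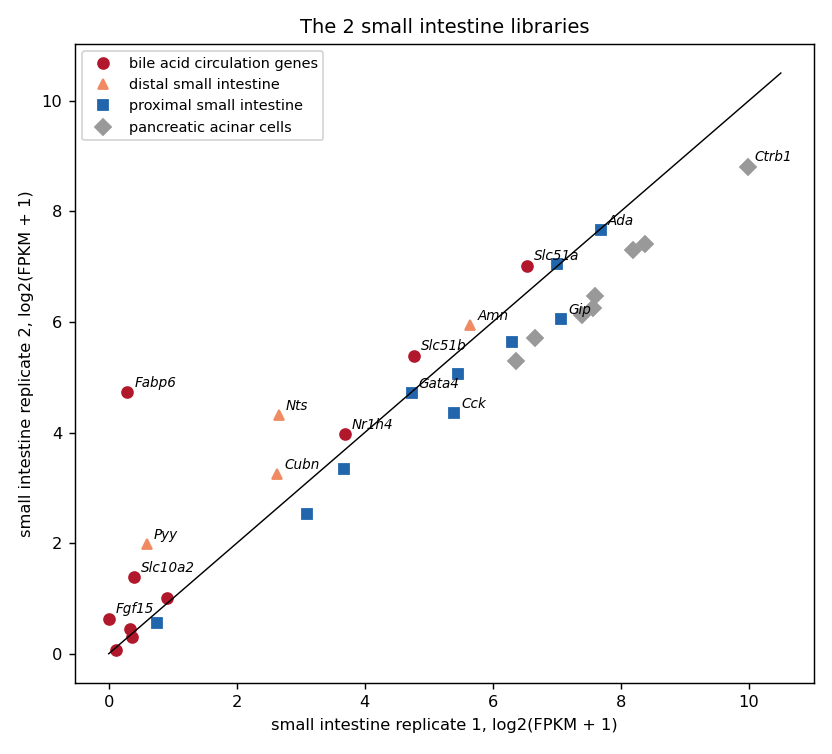
Small intestine replicate 1 (x axis) against replicate 2 (y axis), each as log2(FPKM + 1), for the 10 members, 4 distal genes, 10 proximal genes and 8 pancreatic acinar genes, with a line of equal levels. Fabp6 lies farthest above the line, distal genes lie above it, and 9 of 10 proximal genes and all acinar genes lie below it.

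Of 17 genes of bile acid synthesis 15 were tested, and 11 were called higher in liver and 1 lower, with a median log2 difference of 2.57, beside 6.56% and 32.7% of all genes tested. Cyp7a1, the rate-limiting enzyme of the classical pathway, was at 2.98 and 7.87 FPKM in liver and was listed at 0 in the other 6 libraries (log2 difference 2.57, SE 0.26, adjusted p by limma 8.93e-05). Cyp8b1, which sets the share of cholic acid, was at 93.4 and 152 in liver and at most 1.32 elsewhere. Scp2, which carries out the last side-chain cleavage in peroxisomes, was at 733 and 916 in liver, 227 and 213 in small intestine, 185 and 193 in kidney, and 64.2 and 63.3 in lung. Akr1c6, a hydroxysteroid dehydrogenase, was at 556 and 641 in liver and at most 1.46 elsewhere. In small intestine 1 of the 15 was called higher and 9 lower (13.7% and 11.3% of all genes), in lung 2 higher and 11 lower (40.7% and 8.26%), and in kidney 5 higher and 4 lower (8.65% and 16.1%). Among those higher in kidney was Slc27a2, a second acyl-CoA synthetase of this family, at 602 and 516 FPKM in kidney against 182 and 157 in liver, while its relative Slc27a5 was under 1 FPKM in kidney.

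Among 13 other transporters of bile acids and bile lipids, all tested, 9 were called higher in liver and 1 lower, 6 higher in small intestine and 3 lower, 3 higher in kidney and 8 lower, and 1 higher in lung and 7 lower. The shares of all genes called higher and lower were 6.56% and 32.7% in liver, 13.7% and 11.3% in small intestine, 8.65% and 16.1% in kidney, and 40.7% and 8.26% in lung. Slco1b2, a sodium-independent uptake carrier of hepatocytes, was at 224 and 251 FPKM in liver and at most 0.540 elsewhere, the same pattern as Slc10a1. Slco1a1, another carrier of this kind, was at 50.1 and 81.3 in liver and 26.5 and 27.0 in kidney. The apical export pump Abcc2 was high in 3 tissues, with 39.2 and 44.5 in liver, 31.1 and 43.0 in small intestine and, in kidney, 30.4 and 12.4. Abcc3, a basolateral pump, was at 24.0 and 19.97 in liver, at 12.3 and 10.9 in small intestine, and under 0.3 in kidney, whereas Abcc4, which is basolateral in hepatocytes and apical in the proximal tubule, was at 3.85 and 1.84 in kidney, overlapping lung at 1.46 and 1.91 (log2 difference of kidney from the other tissues 1.12, SE 0.21, adjusted p by limma 0.00314). Abcg5, a subunit of the sterol exporter, was at 66.6 and 102 in small intestine and 20.8 and 23.0 in liver.

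In the list of signalling and transcription partners, 14 of 16 genes were tested, and 7 were called higher in liver and 2 lower, 5 higher in small intestine and 1 lower, 2 higher in kidney and 4 lower, and 0 higher in lung and 8 lower. Against the shares of all genes given for the transporters, the kidney counts and the 1 lower in small intestine were close to the background. Nr0b2 (SHP), a repressor that Nr1h4 turns on, was at 56.0 and 42.4 FPKM in liver, at 5.19 and 3.59 in small intestine and at 1.77 and 2.30 in kidney, although the receptor itself was as high in kidney as in liver within the spread. Klb, the coreceptor that hepatocytes need to respond to Fgf15, was at 4.22 and 4.49 in liver and at most 0.0971 elsewhere. Fgfr4, the receptor with which it pairs, was at 6.53 and 7.08 in liver, 9.94 and 5.72 in kidney, 5.72 and 8.45 in lung, and 0.754 and 0.598 in small intestine, where it was called lower (log2 difference -2.28, SE 0.22, adjusted p by limma 9.5e-05). Liver was the only one of the 4 tissues with both Klb and Fgfr4 above 1 FPKM. Gpbar1, the membrane receptor for bile acids, was at 0.397 and 0.329 in small intestine and did not pass the filter. Hnf4a, a transcription factor of hepatocytes, enterocytes and the proximal tubule, was at 61.5 and 60.3 in liver, 58.7 and 79.3 in small intestine, 93.8 and 62.2 in kidney, and 0.764 and 0.350 in lung. Vdr, a nuclear receptor that also binds the secondary bile acid lithocholic acid, was at 63.8 and 77.6 in small intestine and 40.0 and 25.5 in kidney, and under 0.3 in liver.

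**Figure D5:**
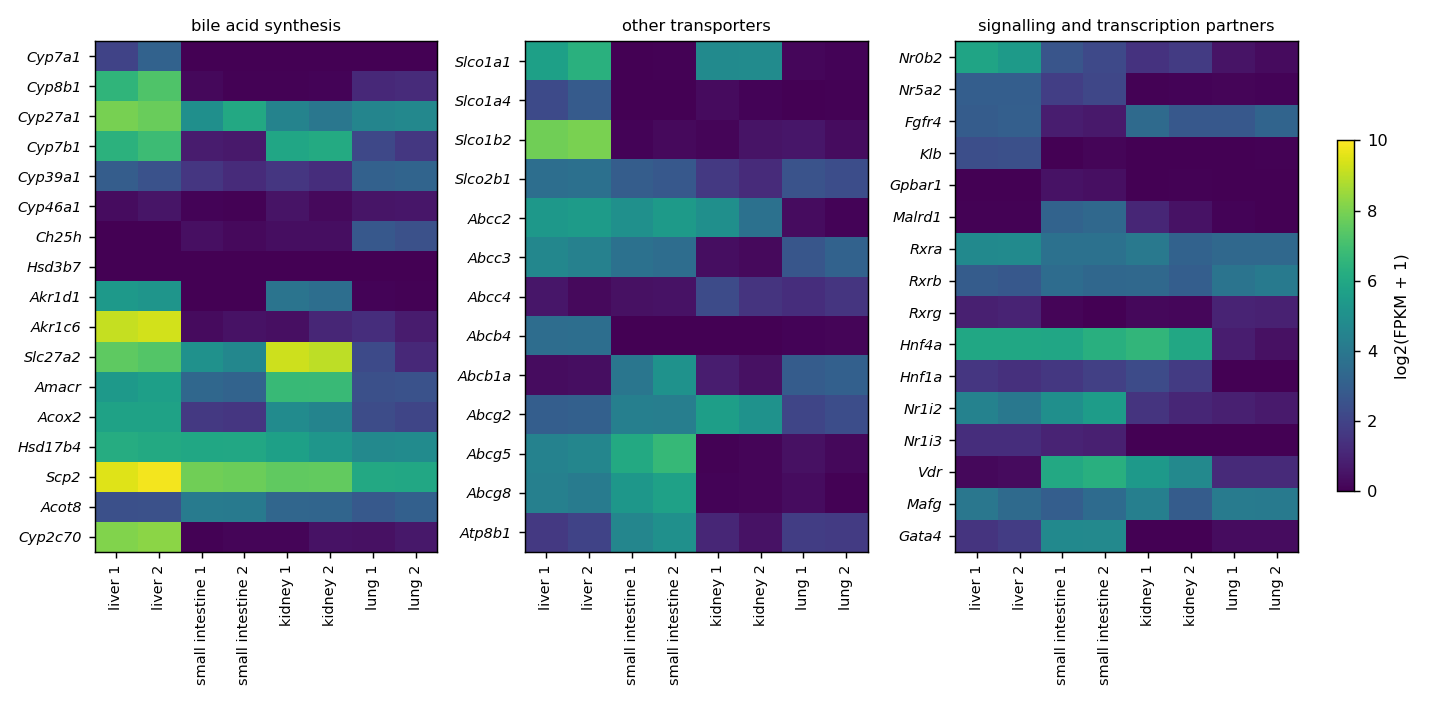
Levels as log2(FPKM + 1), on a colour scale from 0 to 10, of the genes of bile acid synthesis, other transporters and signalling and transcription partners (rows) in the 8 libraries (columns). Most synthesis genes are brightest in liver, Slc27a2 is brightest in kidney, and Abcc2 and Hnf4a are high in liver, small intestine and kidney.

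The genes most like each pattern were found by Pearson's r of log2(FPKM + 1) over the 8 libraries, among 7090 tested genes with a mean of at least 10 FPKM in a tissue. These values describe 8 libraries in 4 tissue pairs. Slc10a1 was most like Slco1b2, Cyp2a12 and Mup18, with r of 0.9996 for each. For Slc51b the nearest were Slc35f2 at 0.994, Degs2 at 0.993 and Tldc2 at 0.990. Slc10a2 was nearest to Prodh at 0.987, Suclg2 at 0.979 and Gm6652 at 0.978. The receptor Nr1h4 was nearest to 0610005C13Rik at 0.994, Acot12 at 0.991 and Dnajc22 at 0.990.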

How the data were processed

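Polyadenylated RNA of 4 tissues (2 libraries each) was sequenced. The authors mapped reads to the Ensembl 75 mouse genome (GRCm38) with STAR 2.5.3a and deposited FPKM values made with DESeq2; the counting program and its use of strand are not given in the sources used here, so reads of overlapping or antisense genes cannot be told apart. Columns were matched to samples by name. FPKM is lowered in a library where a few transcripts take many reads. Reads were recovered with GENCODE M21 exon lengths (51847 symbols matched), and 94.5% to 96.1% of values below 50 reads per library were whole within 0.02 reads.

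Genes with an FPKM of at least 1 in at least 2 libraries were fitted on log2(FPKM + 1) with limma 3.58.1 (lmFit, eBayes with a trend) in R 4.3.3 over all 8 libraries. Contrasts were a tissue minus the mean of the 3 others, and all tissue pairs, with Benjamini-Hochberg adjustment within each contrast. Fold changes on this scale understate those of low genes. Permutation tests were exact over the choices of 2 of 8 libraries, or 2 of 4 for the subunit ratio. Tables and figures were made in Python 3.11.15 (numpy 2.4.6, matplotlib 3.10.9, pandas 2.3.3, scipy 1.17.1). The limma step was run on simulated data with a lower size limit for calls, so that run does not check the calling rule used here. Named genes were the members, the 3 highest genes of each list in any tissue and a set of partners. The members and lists were chosen with earlier results of these data known. A few genes outside the rule, such as the single hepatocyte markers and Cybrd1, were named after their values were seen. Alternatives changed the pseudocount, filter, scaling, trend, block, model and libraries. The single-cell data were not analysed here.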

Additional observations from a re-analysis of the deposited data

How the results depend on the processing

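Under 16 alternatives, the counts of members called in each tissue stayed within 1.5 times the reported counts. The ratio of Slc51b to Slc51a moved where both are low. With 1 FPKM added to both subunits, its log2 value was -0.28 in place of -0.996 in liver replicate 2 and 0.58 in place of 3.50 in lung replicate 2. For single members against the other tissues, 505 values kept their direction and call, 6 lost the call, 1 gained it and 0 reversed. The calls lost are those of Slc10a2 in liver and small intestine and of Slc51b in kidney given above, and the call gained was Nr1h4 in small intestine with voom (1.11, adjusted p 0.00486). Of 17 differences between tissue pairs, 255 values under the alternatives kept their direction and call, 4 lost the call, 7 gained it and 6 changed sign. The sign changed for differences that were not called, Nr1h4 in kidney minus liver (-0.42 with median-of-ratios scaling, -0.0775 with quantile normalization, and -0.0769 to 0.30 with 1 library left out, negative without liver replicate 1), Slc51a in liver minus lung (-0.25 to 0.34 with 1 library left out, negative without liver replicate 2 or lung replicate 2) and Slc51b in lung minus liver (-0.23 with quantile normalization). Log2 differences of low genes depend on the pseudocount. With 2 libraries per tissue, a level that rests on 1 library cannot be separated from that mouse.

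Tissues share mice, but the labels do not tie replicate numbers to mice. The correlation of same-numbered replicates' deviations between tissues was -0.217 to 0.0528, which does not show whether the libraries are paired. With a replicate block, 8 members were called in liver, 7 in small intestine, 8 in kidney and 8 in lung, as without it.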

Other observations

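Of 9 paralogs of the members 8 were tested, and 6 were called higher in lung and 2 lower, beside 40.7% and 8.26% of all genes tested (15.1% and 16.9% under median-of-ratios scaling). The difference from the members was not tested. Slc27a4, a fatty acid transport protein and relative of Slc27a5, was at 145 and 164 FPKM in small intestine and at most 8.95 in the other tissues (log2 difference 4.45, SE 0.15, adjusted p by limma 5.33e-07). Slc10a6, a carrier of sulphated steroids in the family of Slc10a1, was at 18.0 and 21.5 in lung and at most 0.900 elsewhere (log2 difference 3.87, SE 0.19). Slc10a5, a further relative, was at 8.07 and 14.2 in liver, 14.5 and 6.41 in kidney, and 3.81 and 9.93 in small intestine.

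Among tested genes with a mean of at least 10 FPKM in a tissue, those most like Fgf15 over the 8 libraries were Paneth cell defensins. They were Defa32 (Pearson's r of 0.897), Defa33 (0.893) and Defa20 (0.881). Fgf15 was above 0 in a single library, so these r values rest on small intestine replicate 2. Fabp6, which was not among the tested genes, had a higher r with Fgf15 (0.998). The defensins were at 33.2 and 1250, 41.4 and 1466, and 64.3 and 2359 FPKM in small intestine replicates 1 and 2. Their family members are near identical in sequence, so the value of any one of them is uncertain.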
